A study of Mus musculus with 15 samples.

Results

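The heat shock proteins and their DnaJ co-chaperones were examined in the liver of female C57BL/6 mice as a group of 67 genes among the 55450 of the count table. The members were the protein-coding genes named Hspa, Hspb, Dnaja, Dnajb or Dnajc with a number, together with Hsp90aa1, Hsp90ab1, Hspd1, Hspe1 and Hsph1. The endoplasmic reticulum chaperones Hspa5, Dnajb9, Dnajb11 and Dnajc3 were left out by the naming rule, and no measured level entered it. Messenger RNA was sequenced from 1 liver sample of each of 15 mice in 3 groups of 5. The Adult group, A1 to A5, was aged 6 months and given corn oil as vehicle. The Old group, O1 to O5, was aged 22 months and given the same vehicle, and the PDX group, P1 to P5, was also aged 22 months and given the docosahexaenoic acid derivative protectin DX at 30 ng per g of body weight in corn oil, by daily gavage. The labels named no engineered allele. These ages are those at the start of the study, and the livers were taken after the weeks of gavage. Old and Adult were compared to describe aging, PDX and Old to describe the treatment, and PDX and Adult to place the treated animals beside the young reference.

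Heat shock proteins keep other proteins folded. HSP70 chaperones bind exposed stretches of unfolded chains in cycles of ATP binding and hydrolysis, DnaJ proteins deliver clients to them and speed up the hydrolysis, HSP110 proteins exchange the nucleotide, HSP90 completes the folding of receptors and kinases, small heat shock proteins hold unfolded clients, and Hspd1 with Hspe1 forms the folding chamber of mitochondria. In stressed cells heat shock factors, chiefly Hsf1, bind arrays of alternating inverted GAA units (heat shock elements) and raise the stress-inducible members, among them Hspa1a, Hspa1b, Hsph1, Dnajb1 and Hsp90aa1, whereas Hspa8 and Hsp90ab1 are abundant without stress.

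The members comprised 10 HSP70 genes, 3 HSP110 genes, 2 HSP90 genes, the 2 mitochondrial chaperonin genes, 8 small heat shock protein genes, and 4, 11 and 27 DnaJ genes of classes A, B and C. Levels are given as CPM, counts per 1000000 counted read pairs after TMM scaling between libraries. Of the members, 58 passed the low-count filter and were tested with 15808 genes in all. The other 9 were at or close to the limit of detection: Dnajb8, Dnajc5b and Dnajc5g had no count in any mouse, Dnajb3, Dnajb7, Hspb3 and Hspb9 had at most 4 counts in a mouse, Hspa1l had at most 11 and Dnajc6 at most 13.

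The promoters are shown first because the stress response is read from them. RefSeq windows of 300 bases (GRCm38.p6, 250 bases before the annotated start to 50 after it) existed for 53 of the 67 members. The other 14, which were not searched, were Hsp90aa1, Hsp90ab1, Hspa8, Hspa9, Hspa13, Hspb2, Dnajc2, Dnajc5, Dnajc5b, Dnajc11, Dnajc12, Dnajc18, Dnajc22 and Dnajc30. The motif of 3 units, GAANNTTCNNGAA or its reverse complement TTCNNGAANNTTC, was searched on both strands and lay in the windows of 4 members, Hsph1, Hspd1, Hspe1 and Dnajb6, which is 7.55% of the members with a window against 0.662% of all 27025 genes. The motif of 2 units, GAANNTTC or TTCNNGAA, which lies inside the longer one, was found in 16 members (30.2%, against 17.0% of all genes). Such a match is a description of the letters and does not show that a factor was bound. Hspd1 and Hspe1 stand head to head, and their windows share 285 bases (chr1:55087898-55088182), so that both read the same 2 overlapping motifs from opposite strands. The Hspa1a and Hspa1b windows differ at 4 of 300 bases. Capitals mark every match to the motif of 3 or of 2 units, each window is written 5′ to 3′ on the strand of its gene, and the windows are those of Hspd1 (chr1:55087883-55088182, minus strand), Hsph1 (chr5:149636266-149636565, minus strand), Dnajb6 (chr5:29735648-29735947, plus strand), Hspa1a (chr17:34972107-34972406, minus strand), Hspa1b (chr17:34959189-34959488, minus strand) and Dnajc10 (chr2:80315216-80315515, plus strand).
Hspd1: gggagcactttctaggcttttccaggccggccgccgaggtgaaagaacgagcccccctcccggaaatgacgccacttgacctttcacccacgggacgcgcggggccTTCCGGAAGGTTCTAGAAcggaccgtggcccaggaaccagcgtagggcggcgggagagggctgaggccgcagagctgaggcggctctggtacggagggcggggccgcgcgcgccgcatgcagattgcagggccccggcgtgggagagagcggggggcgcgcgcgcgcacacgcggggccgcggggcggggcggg
Hsph1: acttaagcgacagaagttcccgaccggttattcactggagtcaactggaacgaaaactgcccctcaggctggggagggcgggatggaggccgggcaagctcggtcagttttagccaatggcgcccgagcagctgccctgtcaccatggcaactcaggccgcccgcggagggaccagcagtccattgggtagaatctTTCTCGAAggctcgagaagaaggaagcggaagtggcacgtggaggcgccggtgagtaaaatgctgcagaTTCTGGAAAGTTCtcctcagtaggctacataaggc
Dnajb6: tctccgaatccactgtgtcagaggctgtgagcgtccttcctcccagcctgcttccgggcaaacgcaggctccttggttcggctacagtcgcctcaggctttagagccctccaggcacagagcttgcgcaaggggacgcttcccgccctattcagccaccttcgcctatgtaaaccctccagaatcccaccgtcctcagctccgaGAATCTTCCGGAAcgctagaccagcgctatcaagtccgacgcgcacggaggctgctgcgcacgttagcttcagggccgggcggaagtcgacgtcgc
Hspa1a: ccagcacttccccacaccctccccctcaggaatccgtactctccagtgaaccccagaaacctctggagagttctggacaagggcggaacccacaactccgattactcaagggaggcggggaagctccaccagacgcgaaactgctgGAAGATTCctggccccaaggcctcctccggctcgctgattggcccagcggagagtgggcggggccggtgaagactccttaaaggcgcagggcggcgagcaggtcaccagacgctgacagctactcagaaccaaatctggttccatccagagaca
Hspa1b: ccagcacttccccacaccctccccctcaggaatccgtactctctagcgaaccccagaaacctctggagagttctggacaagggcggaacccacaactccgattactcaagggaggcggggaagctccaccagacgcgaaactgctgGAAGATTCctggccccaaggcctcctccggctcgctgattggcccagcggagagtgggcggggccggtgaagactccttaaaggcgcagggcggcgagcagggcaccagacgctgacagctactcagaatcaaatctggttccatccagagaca
Dnajc10: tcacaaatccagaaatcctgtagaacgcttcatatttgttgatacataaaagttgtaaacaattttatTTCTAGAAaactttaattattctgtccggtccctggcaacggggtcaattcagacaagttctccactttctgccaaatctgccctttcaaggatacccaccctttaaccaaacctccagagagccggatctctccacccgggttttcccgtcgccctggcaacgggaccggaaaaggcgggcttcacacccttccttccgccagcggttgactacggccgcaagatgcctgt

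Total counts per library were 22424383 to 36070835 in Adult, 25480180 to 29069346 in Old and 26113995 to 30139181 in PDX mice. The livers carried hepatocyte markers (Alb, Apoa1, Ttr, Serpina1c, Apob and Cps1), whose summed level was 125131 to 137120.1 CPM in Adult, 48137 to 202509 in Old and 108416 to 164909.8 in PDX mice. O2 and O5 stood apart: their sums were 76119.9 and 48137 CPM, O2 had the highest Kupffer cell (2594 CPM) and neutrophil (184 CPM) marker sums of all mice, and O5 had the highest stellate cell sum (248 CPM) and the lowest Kupffer cell sum (156 CPM). Most of the stellate sum of O5 was Col1a1 (188 CPM). Of the other stellate markers, O5 had the lowest Reln of all mice (27.1 CPM), Lrat below the Adult range (15.2 CPM) and Des above it (17.7 CPM). In bulk tissue, fewer cells of a type and less RNA per cell cannot be told apart. All 5 neutrophil markers and 3 of the 4 B-cell markers rose in Old mice at an adjusted p under 0.05. For the members whose values rest most on O2 and O5, the value without these mice is given beside the result.

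Few chaperone genes passed the test, and those called were higher in Old than in Adult mice. Between Old and Adult mice, 3 of the 58 tested members rose (Hsp90aa1, Dnajc10 and Dnajb5) and 0 fell. A call here is a Benjamini-Hochberg adjusted p below 0.05 in the quasi-likelihood test of edgeR. Across all 15808 genes 6.78% were called in that comparison, 4.71% of them higher and 2.07% lower as shares of all genes, so the 3 calls did not stand out from the background. At an unadjusted p under 0.05 there were 7 higher and 3 lower members, against 27.7% of all genes. The log2 fold change was above 0 for 31 of the 58 members and for 56.8% of all genes, with a median of 0.026 over the members and 0.068 over all genes. Every Old mouse lay above every Adult mouse for Dnajb5 and Hspb2, and below every Adult mouse for Dnajc14 and Dnajc19, that is for 2 members in each direction. Across all genes 8.13% did not overlap, 3.65% with Old above and 4.48% with Old below.

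**Figure D1:**
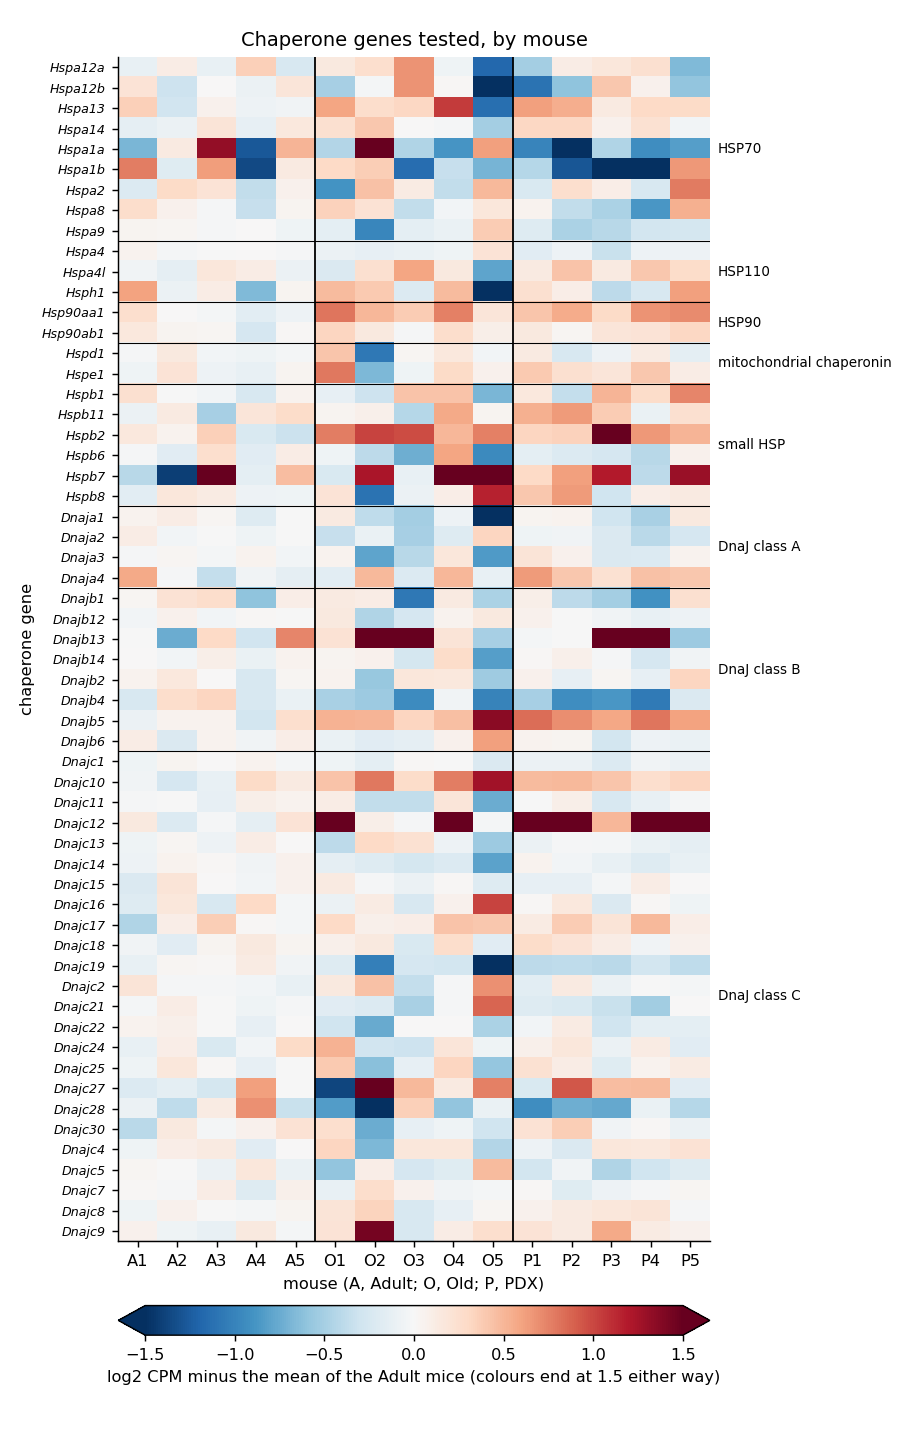
Level of each of the 58 tested chaperone genes (rows, by role) in each mouse (columns), as log2 CPM minus the mean of the 5 Adult mice. Adult and PDX columns are pale for most genes, while O2 and O5 hold deep colours of both signs and the Dnajb5 row is red in all 10 older mice.

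PDX treatment left no member past the threshold. Between PDX and Old mice 0 of 58 members were called by edgeR's quasi-likelihood test, at an adjusted p under 0.05 or under the 0.25 that the study allowed for this comparison, and the smallest adjusted p was 0.793. No gene at all was called there (0.0% of 15808). The Wald test of DESeq2 and limma on the deposited values also called 0 members. At an unadjusted p under 0.05 there were 2 lower members (Hspa1a and Dnajc10) and 0 higher ones, against 5.28% of all genes. PDX and Old mice overlapped for all 58 members (0.342% of all genes did not overlap), and the log2 fold change was above 0 for 28 of the 58 members and 40.1% of all genes, with medians of -0.004 and -0.069. Old mice are the reference in one comparison and the test group in the other, so the fold changes of the 2 comparisons are not independent.

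Between PDX and Adult mice edgeR's quasi-likelihood test called 0 members, where it called 2.66% of all genes (1.76% higher and 0.898% lower). The log2 fold change was above 0 for 28 of the 58 members and 48.4% of all genes. The unadjusted p was under 0.05 for 5 higher members (Dnajb5, Dnajc10, Dnajc12, Hsp90aa1 and Hspb2) and 1 lower member (Dnajb4), against 20.6% of all genes. DESeq2 called 4 members (Dnajb5, Dnajc12 and Hsp90aa1 higher, Dnajb4 lower), and 1388 genes in all, 4.71% of the 29465 with any count. That base is wider than the 15808 genes of the main fit and includes genes under its low-count filter. The share of 4.71% is therefore not comparable with 2.66% or with the members called among the 58. A fit of these 2 groups alone, without the wider spread of the Old mice, called 7 members higher and 4 lower, and 29.6% of all genes. PDX mice lay wholly above Adult mice for Dnajb5, Dnajc12 and Hsp90aa1, and wholly below them for Dnajc19, Hspa4 and Hspa9 (19.9% of all genes did not overlap, 10.5% with PDX above and 9.34% with PDX below).

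**Figure D2:**
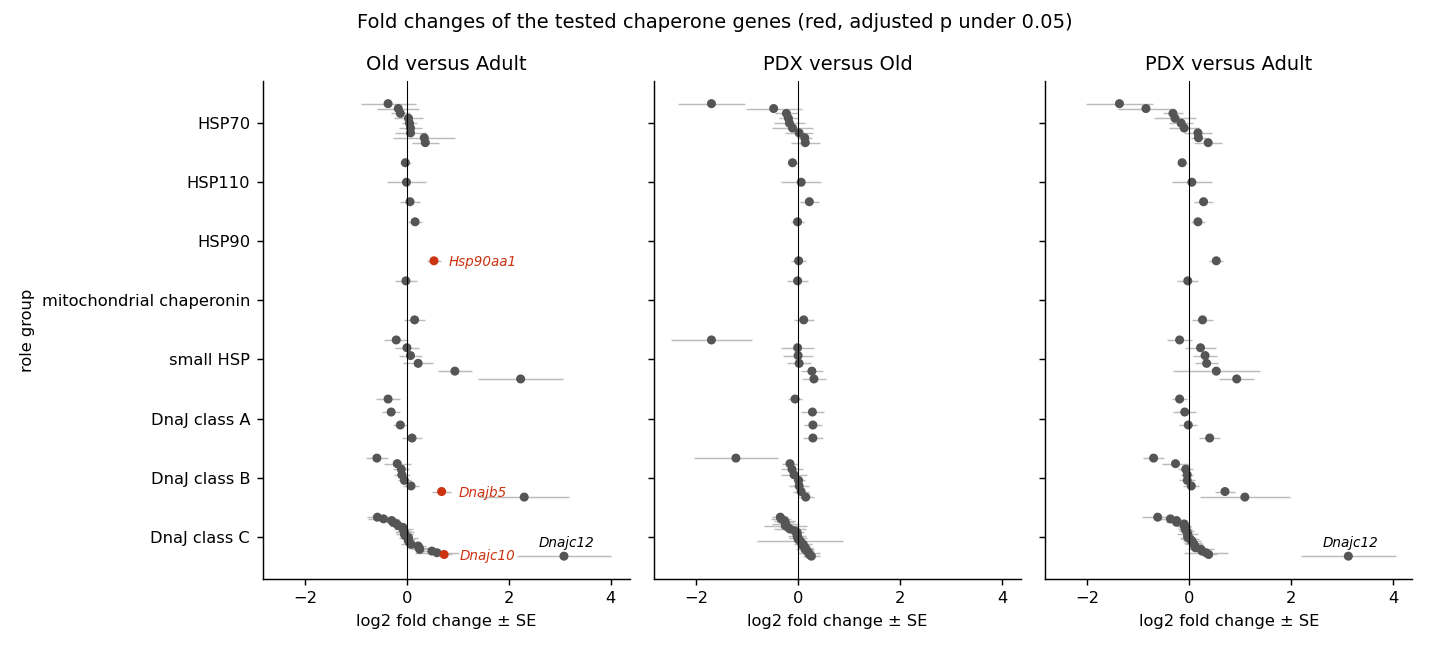
log2 fold change with its SE for the 58 tested members, by role group (vertical axis) in the 3 comparisons. Red points had an adjusted p under 0.05, and these are Hsp90aa1 (0.53), Dnajb5 (0.68) and Dnajc10 (0.73) in Old versus Adult.

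The Old mice differed more among themselves than the mice of the other groups. The median SD of log2 CPM over the members was 0.15 in Adult, 0.422 in Old and 0.168 in PDX mice. The same medians over all genes were 0.205, 0.525 and 0.227. O5 was the lowest Old mouse for 21 of the 58 members and the highest for 12. A4 was the lowest Adult mouse for 22 and the highest for 13, and P3 the lowest PDX mouse for 18 and the highest for 5. The same counts over all genes were not made, so these do not show a trait of the chaperone genes. The members together took 0.373% to 0.423% of the counted pairs in Adult, 0.39% to 0.474% in Old and 0.378% to 0.435% in PDX mice.

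Per kilobase of exon, Hsp90ab1, the constitutive cytosolic HSP90, had the highest mean level of all members over the 15 mice, at 379 CPM per kb. Next in order were the mitochondrial HSP70 Hspa9, the small heat shock protein Hspb8, the chaperonin Hspd1 and the constitutive HSP70 Hspa8. In mouse liver the most abundant DnaJ genes per kilobase were Dnajc22 (47.0 CPM per kb), Dnaja2 (39.3) and Dnaja3 (25.6), and Dnajb2 led class B with 20.5 CPM per kb. Hspa4 led the HSP110 genes with 26.1 CPM per kb.

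Both HSP90 genes had higher means in Old and PDX than in Adult mice, and the stress-inducible one was called. Hsp90aa1 measured 54.4, 45.8, 45.0, 41.2 and 43.5 CPM in A1 to A5, 79.7, 64.5, 59.8, 77.2 and 51.9 CPM in O1 to O5, and 60.9, 67.1, 55.7, 73.0 and 75.1 CPM in P1 to P5. The Old and Adult ranges overlapped through O5 and A1, and every PDX mouse lay above every Adult mouse. In Old mice Hsp90aa1 rose by a log2 fold change of 0.53 ± 0.14 (SE, adjusted p = 0.0328, edgeR's quasi-likelihood test). The PDX mean, 66.4 ± 8.1 CPM (SD, n = 5), was close to the Old mean of 66.6 ± 11.7, and the PDX against Adult log2 fold change of 0.53 ± 0.14 had an adjusted p of 0.051. Without O2 and O5, of which O5 was the lowest Old mouse for this gene, the log2 fold change of Hsp90aa1 in Old versus Adult was 0.66 with an adjusted p of 0.00917. The adjusted p was above 0.05, from 0.053 to 0.0871, when any 1 of the 5 Adult mice was left out. In edgeR it was also 0.0665 without the low-count filter, 0.0821 with the replicate number as a block and 0.103 with only these 2 groups. Limma on the deposited values gave 0.0521.

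Hsp90ab1 measured 1171, 1079.5, 1067, 876 and 1062 CPM in Adult, 1311, 1159, 1037, 1256 and 1111 CPM in Old, and 1159.8, 1066, 1184, 1208 and 1296 CPM in PDX mice. The 3 ranges overlapped, A4 was the lowest mouse and O1 the highest. Its log2 fold change was 0.16 ± 0.14 in Old versus Adult (adjusted p = 0.467) and 0.01 ± 0.14 in PDX versus Old (adjusted p = 0.988).

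Among the HSP70 genes no member passed the test in any comparison (adjusted p of 0.422 or more in Old versus Adult for the 9 tested). Hspa8, which serves folding and clathrin uncoating in unstressed cells, measured 369, 323, 305, 242 and 317 CPM in A1 to A5, 391, 359, 238, 299.8 and 348 CPM in O1 to O5, and 321, 239, 222, 168 and 447 CPM in P1 to P5. The groups overlapped throughout, with A4, O3 and P4 the lowest mouse of each and P5 the highest of all. The PDX against Old log2 fold change was -0.23 ± 0.23 (adjusted p = 0.828), and -0.14 without O2 and O5. Hspa9, which pulls proteins into mitochondria, measured 591, 586, 564, 575 and 546 CPM in Adult, 517, 289.8, 519, 536 and 746 CPM in Old, and 501, 413, 430.1, 473 and 475 CPM in PDX mice. O2 was the lowest and O5 the highest of all mice, 3 Old mice lay just under the Adult range, and the PDX mice lay wholly below it. The PDX against Adult log2 fold change of Hspa9, -0.32 ± 0.19, had an adjusted p of 0.353 in the fit of all 15 mice and of 0.0108 in the fit of these 2 groups alone.

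Hspa1a and Hspa1b, the classical heat-inducible HSP70 genes, were near the bottom of the tested range. Hspa1b measured 7.67, 3.95, 6.98, 1.72 and 4.94 CPM in Adult, 5.52, 5.79, 2.00, 3.53 and 2.74 CPM in Old, and 3.31, 1.81, 0.82, 1.00 and 7.05 CPM in PDX mice. Mice of each group spanned low and high values, and the log2 fold change was -0.37 ± 0.54 in Old versus Adult (adjusted p = 0.696) and -0.48 ± 0.55 in PDX versus Old (adjusted p = 0.844). Hspa1a had 0.183 to 1.46 CPM in Adult, 0.26 to 2.25 in Old and 0.12 to 0.379 in PDX mice, the highest being O2. Its PDX against Old log2 fold change was -1.70 ± 0.65 (adjusted p = 0.793), and -0.40 without O2 and O5. In Old versus Adult it was 0.34 with all mice and -0.94 without them. The values of this pair are uncertain, because 58.8% of the 50-base words of the Hspa1a transcripts also occur in Hspa1b and only uniquely aligned pairs were counted. Hspa13, an HSP70 of the microsomes, lay at 25.1 to 39.5 CPM in Adult, 14.0 to 63.8 in Old and 33.7 to 47.3 in PDX mice. Its Old against Adult log2 fold change of 0.36 ± 0.27 had an adjusted p of 0.422 with all mice, of 0.0418 without O5 and of 0.0307 without O2 and O5. Without O4, the highest mouse, the value was 0.12 (adjusted p = 0.796), and limma on the deposited values gave 0.22 (adjusted p = 0.673).

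Stress-inducible co-chaperones gave no call either. Hsph1, the inducible HSP110, measured 95.8, 59.7, 68.0, 40.0 and 64.8 CPM in Adult, 88.0, 83.2, 54.9, 88.2 and 12.0 CPM in Old, and 74.4, 67.9, 48.3, 53.7 and 96.7 CPM in PDX mice. O5 had less than any other mouse and the remaining values of the 3 groups interleaved. The log2 fold change of Hsph1 was -0.01 ± 0.39 in Old versus Adult (adjusted p = 0.99) and 0.24 without O2 and O5. Dnajb1, the HSP40 that pairs with inducible HSP70, measured 31.0, 35.4, 36.5, 19.9 and 32.5 CPM in Adult, 33.3, 32.9, 14.4, 33.4 and 21.9 CPM in Old, and 32.4, 23.2, 21.4, 16.2 and 36 CPM in PDX mice. A4, O3 and P4 were again the lowest of their groups, and the log2 fold changes were -0.19 ± 0.26 in Old versus Adult (adjusted p = 0.668) and -0.08 ± 0.26 in PDX versus Old (adjusted p = 0.945). Hspa4, a constitutive HSP110, had 147 to 155 CPM in Adult, 137 to 174 in Old and 119 to 143 in PDX mice.

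**Figure D3:**
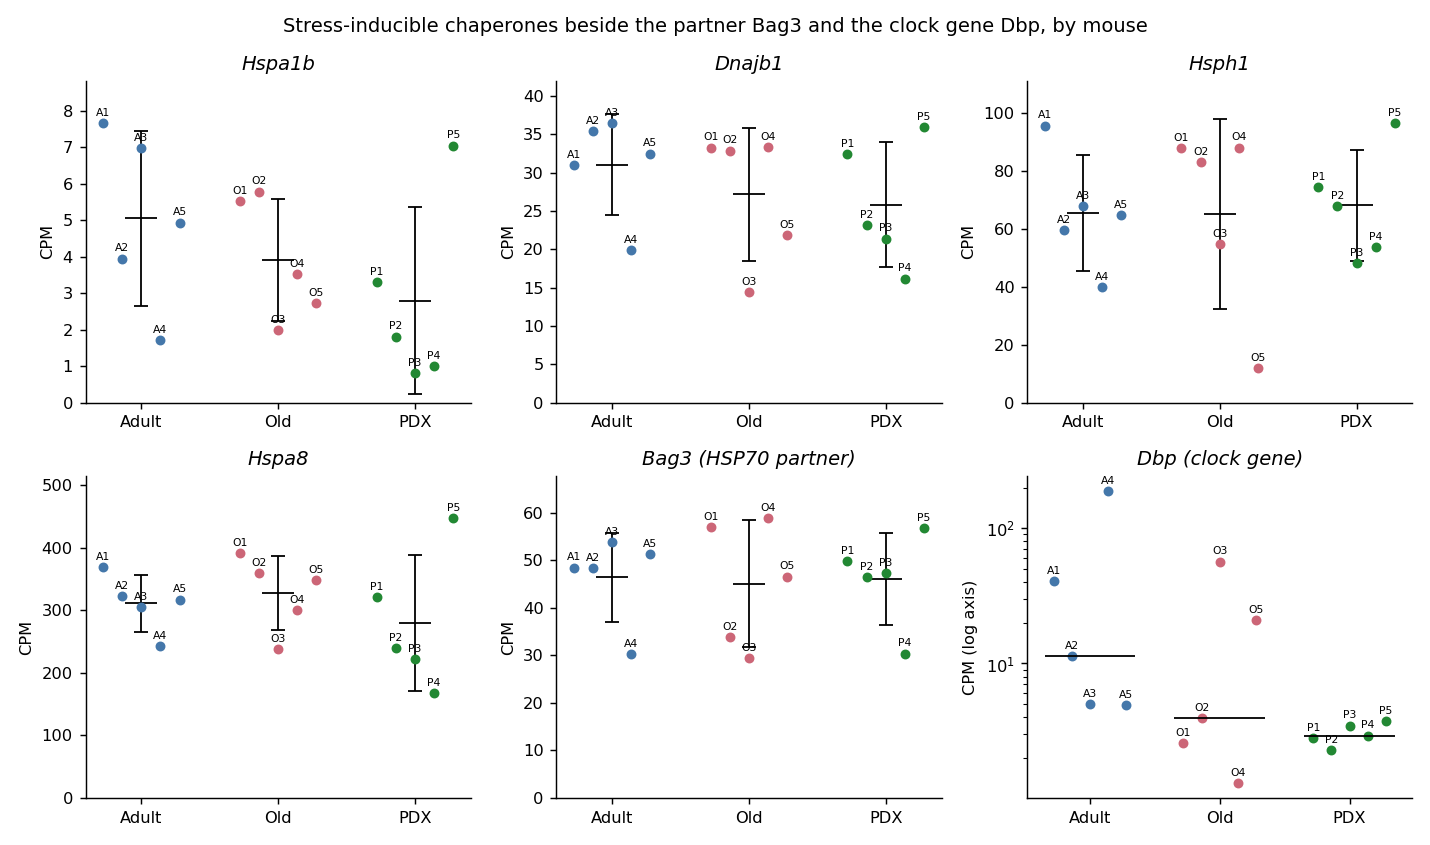
CPM of Hspa1b, Dnajb1, Hsph1, Hspa8, the HSP70 partner Bag3 and the clock gene Dbp in each mouse, with mean and SD (n = 5), or the median on the log axis of Dbp. A4 and O3 sit low for Hspa1b, Dnajb1, Hspa8 and Bag3 and high for Dbp (189 and 56.7 CPM), while P4 sits low with a Dbp of 2.93 CPM. A1, the next Adult mouse for Dbp, is the highest Adult mouse for Hspa1b, Hsph1 and Hspa8.

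Dbp, chosen after its values were seen from 11 listed clock genes, was high in A4 and O3. This output gene of the circadian clock measured 40.5, 11.4, 5.02, 189 and 4.94 CPM in Adult, 2.59, 3.92, 56.7, 1.30 and 20.8 CPM in Old, and 2.29 to 3.75 CPM in PDX mice. A4 and O3, the highest Adult and Old mice for Dbp, were the lowest of their groups for Hspa8, Hspa1b, Dnajb1 and Bag3. A1, the next Adult mouse for Dbp, was the highest Adult mouse for Hspa8 (369 CPM), Hspa1b (7.67 CPM) and Hsph1 (95.8 CPM). P4 was the lowest PDX mouse for Hspa8, Dnajb1 and Bag3 with a Dbp level inside the PDX range. The summed level of the 11 clock genes was highest in A4 among Adult mice (820.1 CPM, the others 284 to 488) but in O5 rather than O3 among Old mice (833 and 521 CPM, the others 162 to 211). It was 179 to 279 CPM in PDX mice, and the part of these genes in the chaperone levels was not tested. Immediate-early genes, which respond within minutes to handling and other stimuli, summed to 96.2 to 195 CPM in Adult mice, with A4 at 120.2, and to 261 to 544 in Old and 318 to 917 in PDX mice. Of these 7 genes, 3 rose in Old mice (Egr1, Jun and Junb) and 2 in PDX mice (Egr1 and Junb) against Adult mice, and their part was not tested.

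The 2 chaperonin genes shared their highest and their lowest mouse, while the order of the other mice differed between them. Hspd1 measured 239, 266, 233, 231 and 236 CPM in A1 to A5, 322, 114, 246, 269 and 234 CPM in O1 to O5, and 265, 203, 228, 262 and 218 CPM in P1 to P5. Hspe1, the lid of the same chamber, measured 48.3, 58.4, 48.1, 46.9 and 52.1 CPM, then 87.8, 31.8, 48.3, 61.6 and 52.9 CPM, then 66.4, 59.5, 57.3, 67.1 and 54.6 CPM in the same order. O1 was the highest and O2 the lowest mouse for both genes. No difference between groups passed the test, with log2 fold changes in Old versus Adult of -0.02 ± 0.21 for Hspd1 (adjusted p = 0.953) and 0.15 ± 0.20 for Hspe1 (adjusted p = 0.646). Without O2 and O5 these values were 0.22 for Hspd1 and 0.39 for Hspe1.

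**Figure D4:**
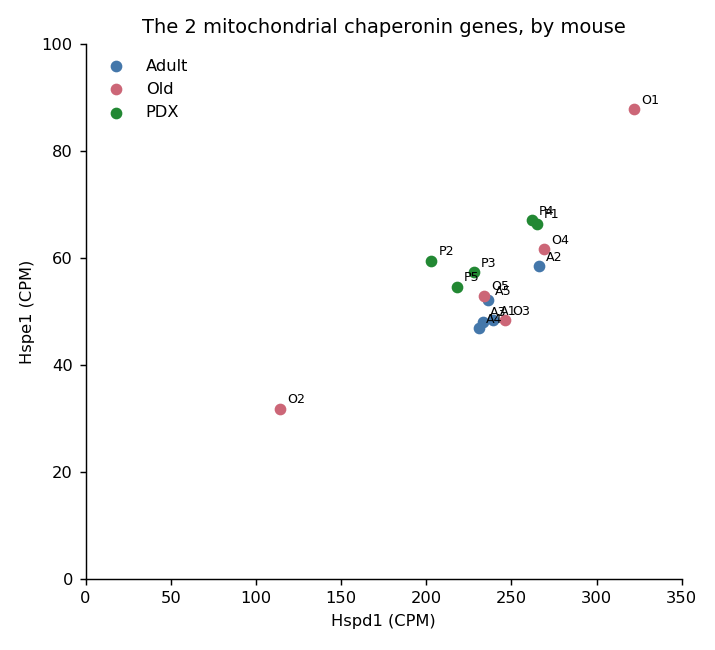
Hspd1 (horizontal axis, CPM) against Hspe1 (vertical axis, CPM) in the 15 mice, coloured by group. O1 and O2 mark the ends, at 322 and 87.8 CPM and at 114 and 31.8 CPM, and the other mice lie between them.

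Of the 14 tested members with a 2-unit motif in their window, 1 (Dnajc10) was called in Old versus Adult, where 6.78% of all genes were, and the median log2 fold change over the 14 was 0.04, within -0.59 to 0.73. Hsp90aa1, which was also called, had no window and could not be counted on either side. The 4 members with a 3-unit motif, Hsph1, Hspd1, Hspe1 and Dnajb6, had log2 fold changes of -0.02 to 0.15 in Old versus Adult, -0.16 to 0.11 in PDX versus Old and -0.07 to 0.26 in PDX versus Adult, and 0 were called.

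Small heat shock proteins gave no call. Hspb1, the stress-inducible HSP27, measured 5.00, 4.19, 4.10, 3.55 and 4.39 CPM in Adult, 3.86, 3.39, 5.69, 5.72 and 2.6 CPM in Old, and 4.73, 3.29, 6.02, 5.14 and 7.09 CPM in PDX mice. The groups overlapped, and the log2 fold change was 0.31 ± 0.24 in PDX versus Old (adjusted p = 0.8), and 0.05 without O2 and O5. Hspb8, which works with Bag3 in the disposal of damaged proteins and is the most abundant small heat shock protein of these livers, measured 177, 224, 216, 188 and 190.0 CPM in Adult, 229, 91.8, 187, 212 and 441 CPM in Old, and 263, 309, 162, 212 and 217 CPM in PDX mice. O2 and O5 were the lowest and the highest of all mice, and the log2 fold change in Old versus Adult was 0.22 ± 0.30 (adjusted p = 0.67), and 0.08 without these mice.

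Muscle-type members were scarce. Hspb7, a cardiac and skeletal muscle protein, was at 0.0352 to 0.73 CPM in Adult, at 0.17, 0.585, 0.188, 3.64 and 1.88 CPM in O1 to O5, and at 0.143 to 0.619 CPM in PDX mice. Its log2 fold change was 2.23 ± 0.83 in Old versus Adult (adjusted p = 0.0993) and -1.70 ± 0.80 in PDX versus Old (adjusted p = 0.793), and O4 and O5 were the highest mice. O4 also had the highest levels of the muscle markers Acta1 (67.2 CPM) and Ckm (32.0 CPM), whereas O5 had 0.108 and 0 CPM of them. The 4 muscle markers summed to 0 to 22.3 CPM in Adult, 0.108 to 106 in Old and 1.57 to 24.0 in PDX mice, Myh6 had no count in any Adult or Old mouse, and their part in the Hspb7 level was not tested. Hspb2 measured 0.309, 0.282, 0.365, 0.22 and 0.201 CPM in Adult, 0.51, 0.614, 0.603, 0.409 and 0.505 CPM in Old, and 0.355, 0.361, 1.01, 0.464 and 0.413 CPM in PDX mice. All 5 Old mice lay above the Adult mice for Hspb2, at 6 to 11 counts in Adult and 11 to 21 in Old libraries, with a log2 fold change of 0.94 ± 0.34 (adjusted p = 0.0876).

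Class A DnaJ proteins are the general partners of HSP70 in the cytosol and, for Dnaja3, in mitochondria. None of the 4 passed the test. Dnaja1 measured 121, 127, 119, 102 and 116 CPM in Adult, 128, 89.8, 82.0, 110.5 and 41.5 CPM in Old, and 120.1, 121, 94.9, 83.1 and 129 CPM in PDX mice. O5 was the lowest of all mice, O2 and O3 also lay below the Adult range, O1 and O4 did not, and the log2 fold change was -0.37 ± 0.23 in Old versus Adult (adjusted p = 0.302) and 0.28 ± 0.23 in PDX versus Old (adjusted p = 0.804). Without O2 and O5 these values were -0.12 and 0.05. Dnaja3 had 105 to 112 CPM in Adult, 112, 62.2, 80.7, 121 and 59.4 CPM in Old, and 92.3 to 123 CPM in PDX mice. O2 and O5 were its 2 lowest mice, and its log2 fold change in PDX versus Old was 0.29 ± 0.18 (adjusted p = 0.793), and 0.03 without these mice. Dnaja4 lay at 5.52 to 10.6 CPM in Adult, 6.14 to 10.1 in Old and 8.33 to 11.2 in PDX mice, and Dnaja2 at 120.5 to 136, 88.9 to 158 and 94.8 to 121 CPM.

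In class B, 1 gene rose and the others did not pass the test. Dnajb5, a co-chaperone known for binding class II histone deacetylases in heart muscle, measured 5.90, 6.52, 6.52, 5.16 and 7.49 CPM in A1 to A5, 9.00, 8.92, 7.88, 8.58 and 16.2 CPM in O1 to O5, and 11.2, 10.2, 9.40, 11.0 and 9.60 CPM in P1 to P5. All 10 older mice lay above all Adult mice, and O5 held the top value by a wide margin. The log2 fold change of Dnajb5 was 0.68 ± 0.19 in Old versus Adult (adjusted p = 0.0429), 0.02 ± 0.19 in PDX versus Old (adjusted p = 0.98) and 0.70 ± 0.19 in PDX versus Adult (adjusted p = 0.0585). Without O2 and O5 the log2 fold change of Dnajb5 in Old versus Adult was 0.44 with an adjusted p of 0.0526, the PDX against Old value was 0.28 (adjusted p = 0.538), and the Old versus Adult adjusted p was 0.0723 to 0.105 when any 1 Adult mouse was left out.

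Dnajb4, a close relative of Dnajb1, had lower means in both older groups than in Adult mice, as did Dnajb1. It measured 38.0, 54.3, 56.5, 38.0 and 41.9 CPM in Adult, 32.1, 30.8, 23.5, 43.5 and 22.5 CPM in Old, and 32.0, 23.6, 24.6, 21.5 and 38.7 CPM in PDX mice. O4 and P5 lay inside the Adult range and the other 8 older mice below it, with a log2 fold change of -0.59 ± 0.21 in Old versus Adult (adjusted p = 0.0859) and -0.70 ± 0.21 in PDX versus Adult (adjusted p = 0.0811). Without O4 the first of these values was -0.75 (adjusted p = 0.036), and without O2 and O5 it was -0.46 (adjusted p = 0.23). Dnajb13, a protein of ciliary and sperm axonemes, was at 0.141 to 0.517 CPM in Adult, at 0.34, 5.5, 1.21, 0.334 and 0.18 CPM in Old, and at 0.172 to 1.45 CPM in PDX mice. Its log2 fold change of 2.30 ± 0.88 in Old versus Adult (adjusted p = 0.107) had O2 and O3 as the highest Old mice and was 1.04 without O2 and O5. The PDX against Old value was -1.22 ± 0.83 with all mice and 0.07 without O2 and O5.

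Class C held the call with the lowest adjusted p, Dnajc10. Dnajc10 (also ERdj5), a disulfide reductase of the endoplasmic reticulum, measured 20.3, 17.8, 19.5, 25.9 and 23.2 CPM in A1 to A5, 28.5, 36.5, 25.6, 36.1 and 50.9 CPM in O1 to O5, and 29.4, 29.8, 28.3, 25.2 and 26.4 CPM in P1 to P5. A4 lay just above O3 and P4, and otherwise the older mice exceeded the Adult mice. Dnajc10 rose in Old mice by a log2 fold change of 0.73 ± 0.16 (adjusted p = 0.0246), and it was 0.38 ± 0.16 in PDX versus Adult (adjusted p = 0.203) and -0.35 ± 0.16 in PDX versus Old (adjusted p = 0.793). The PDX against Old value was -0.19 without O5 and -0.11 without O2 and O5. The Old call held without O2 and O5 (log2 fold change 0.51, adjusted p = 0.0348) and without each Old mouse, and was lost without A1, A2, A3 or A5 in turn (adjusted p of 0.0569 to 0.0674).

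The chaperones of the same compartment that the naming rule left out had a like order of group means. Hspa5, the HSP70 of the endoplasmic reticulum, averaged 929 ± 218 CPM in Adult, 1695 ± 482 in Old and 1542 ± 321 in PDX mice (SD, n = 5), and its Old against Adult log2 fold change was 0.87 (adjusted p = 0.0405). Dnajb11, its DnaJ partner, had a log2 fold change of 0.98 in Old versus Adult (adjusted p = 0.0242) and 0.88 in PDX versus Adult (adjusted p = 0.0426). Dnajc3 and Dnajb9 had 0.52 and 0.11 in Old versus Adult and were not called.

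Dnajc12, a co-chaperone of phenylalanine hydroxylase and the related amino acid hydroxylases, split the older mice. It measured 13.3, 10.4, 11.9, 10.9 and 13.8 CPM in Adult, 319, 12.8, 11.9, 156 and 11.7 CPM in Old, and 243, 131, 17.0, 75.9 and 58.9 CPM in PDX mice. O2, O3 and O5 stayed at Adult levels, O1 and O4 did not, and all 5 PDX mice exceeded all Adult mice, P3 by little. The mean was 12.1 ± 1.47 CPM in Adult, 102 ± 136 in Old and 105 ± 87.1 in PDX mice (SD, n = 5). Its log2 fold changes of 3.08 ± 0.92 in Old versus Adult (adjusted p = 0.0561) and 3.12 ± 0.93 in PDX versus Adult (adjusted p = 0.0826) did not pass the threshold, and the value in PDX versus Old was 0.04 ± 0.85 (adjusted p = 0.992). The Old value passed it when O2, O3 or O5 was left out (adjusted p = 0.0465, 0.0269 and 0.0282), without O2 and O5 (0.0139) and in the Wald test of DESeq2 (0.00812). It was 2.02 without O1 (adjusted p = 0.11), 1.82 with the replicate block (0.232) and 1.68 in limma on the deposited values (0.267), and its adjusted p was 0.106 to 0.121 without any 1 Adult mouse. In PDX versus Old the value of Dnajc12 ran from -0.63 without O2 and O5 to 1.11 without O1.

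**Figure D5:**
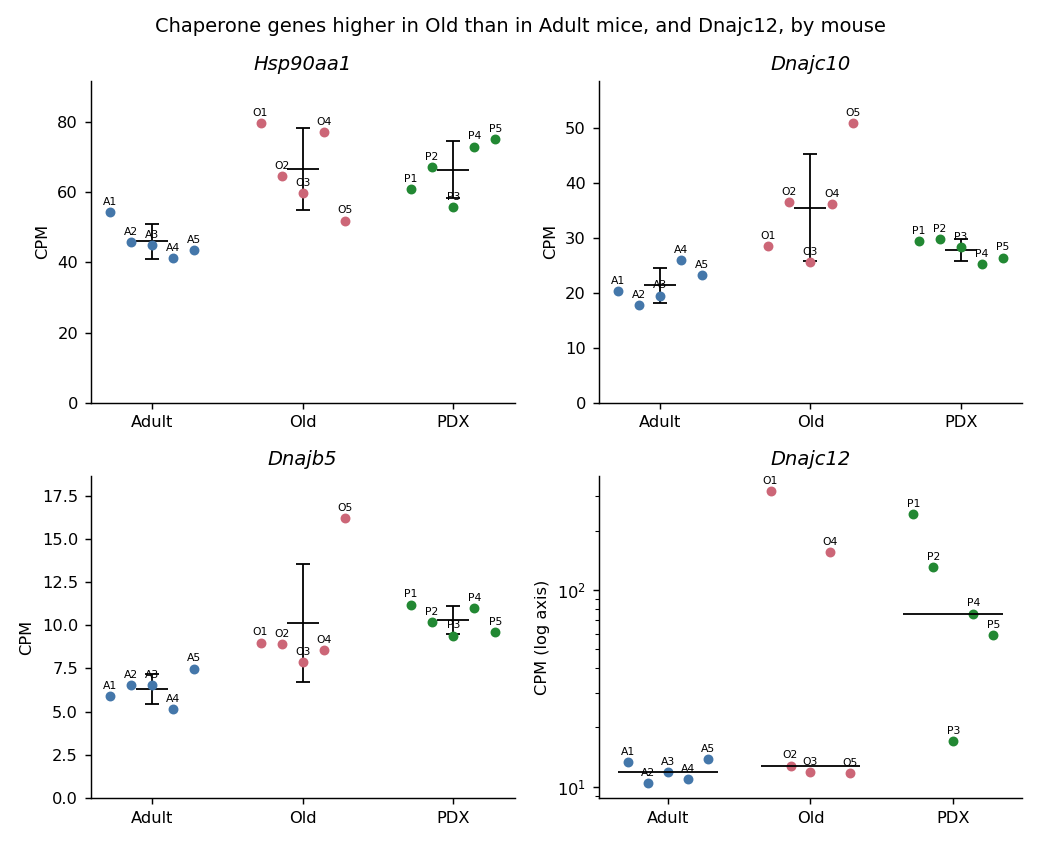
CPM of Hsp90aa1, Dnajc10, Dnajb5 and Dnajc12 in each mouse, with mean and SD (n = 5), or the median on the log axis of Dnajc12. The older groups sit above Adult for Dnajb5 (5.16 to 7.49 CPM in Adult), and Dnajc12 runs from 11.7 to 319 CPM among Old mice.

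Dnajc19, a mitochondrial inner membrane protein, measured 14.8, 16.4, 16.3, 17.5 and 15.5 CPM in Adult, 14.1, 7.84, 13.5, 13.3 and 5.19 CPM in Old, and 12.2, 12.4, 12.1, 13.3 and 12.4 CPM in PDX mice. All older mice lay below all Adult mice and O2 and O5 were the lowest, yet neither comparison with Adult passed the test (log2 fold change -0.58 ± 0.21, adjusted p = 0.0966, in Old and -0.37 ± 0.21, adjusted p = 0.338, in PDX mice). Without O2 and O5 the Old value was -0.23. Dnajc14 had 53.3 to 58.9 CPM in Adult and 32.1 to 51.3 in Old mice, without overlap, and 49.0 to 58.4 in PDX mice, with a log2 fold change of -0.30 ± 0.12 in Old versus Adult (adjusted p = 0.115), and -0.19 without O2 and O5. Dnajc28 lay at 7.61 to 16.0 CPM in Adult, 3.42 to 12.8 in Old and 5.21 to 9.29 in PDX mice. Dnajc22, the most abundant DnaJ gene per kilobase of exon, lay at 87.0 to 99.4, 56.0 to 95.0 and 77.0 to 103 CPM. The log2 fold changes of the 24 tested class C genes ran from -0.58 to 3.08 in Old versus Adult and from -0.35 to 0.26 in PDX versus Old.

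Chaperone partner genes outside the set were called about as often as all genes. Of 45 listed heat shock factors, HSP70 and HSP90 partners and other chaperones, all 45 were tested. Between Old and Adult mice 1 rose and 2 fell at an adjusted p under 0.05 (6.78% of all genes were called), between PDX and Adult mice 0 rose and 1 fell (2.66% of all genes), and between PDX and Old mice 0 were called by edgeR, DESeq2 or limma, with 1, Hsf1, at an unadjusted p under 0.05. The riser was Hsp90b1, the HSP90 of the endoplasmic reticulum, with 851 to 1027 CPM in Adult, 1699, 929, 1265, 1632 and 2563 CPM in Old, and 1186 to 1688 CPM in PDX mice. Its log2 fold change was 0.82 ± 0.22 (adjusted p = 0.0416), O2 alone lay inside the Adult range, and the PDX against Adult value of 0.60 ± 0.22 had an adjusted p of 0.145.

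Bag4, an HSP70 nucleotide exchange factor, measured 23.4 to 31.9 CPM in Adult, 15.1, 12.7, 24.7, 18.6 and 16.3 CPM in Old, and 13.3 to 20.1 CPM in PDX mice. It fell in both older groups, by log2 fold changes of -0.65 ± 0.17 in Old (adjusted p = 0.037) and -0.75 ± 0.17 in PDX mice (adjusted p = 0.0293), with O3 inside the Adult range. Cdc37l1, an HSP90 cofactor, had 41.3 to 46.2 CPM in Adult and 28.4 to 36.8 in Old mice and fell by 0.43 on the log2 scale (adjusted p = 0.0295). It had 28.7 to 38.2 CPM in PDX mice, where the adjusted p against Adult was 0.0777. Without O2 and O5, 0 of the partner genes were called lower in Old mice.

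Hsf1, the main heat shock factor, measured 18.7 to 22.1 CPM in Adult, 19.2 to 26.1 in Old and 16.4 to 21.7 in PDX mice, with log2 fold changes of 0.09 in Old versus Adult (adjusted p = 0.61) and -0.26 ± 0.11 in PDX versus Old (adjusted p = 0.793). Hsf2 measured 32.0, 23.0, 24.3, 23.0 and 24.6 CPM in Adult, 19.6, 17.4, 17.3, 22.8 and 10.0 CPM in Old, and 16.4, 15.7, 15.7, 16.1 and 18.2 CPM in PDX mice. Every older mouse lay below every Adult mouse for Hsf2, and the log2 fold changes of -0.54 in Old and -0.63 in PDX mice had adjusted p of 0.0645 and 0.0656.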

How the data were processed

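Liver mRNA (poly(A) selected, directional libraries, paired reads of 50 bases) of 15 female mice was analysed. The authors aligned reads with STAR 2.6.0c to mm10 and deposited counts of uniquely aligned proper read pairs per gene (featureCounts, Subread 1.6.2, same strand, Ensembl annotation build 100, mitochondrial genes left out). They also deposited variance-stabilized values on a log2 scale (DESeq2 1.23.10), used here only as an alternative. All 15 sample columns of both tables were used (0 columns unused). Gene names, positions and exon lengths came from GENCODE M21 (GRCm38), which named 55104 of 55450 identifiers.

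Counts were tested with edgeR 4.0.16 (R 4.3.3): filterByExpr (minimum count 10, minimum total 15), TMM scaling, a quasi-likelihood fit with 1 coefficient per group over all 15 mice, and Benjamini-Hochberg adjustment over all 15808 genes tested, at 0.05, and also 0.25 for PDX versus Old. SE is the log2 fold change divided by the root of its F. Each mouse is 1 replicate, and intervals between groups rest on 5 mice each. The script was tested on simulated data. Alternatives were the Wald test of DESeq2 1.42.0, RLE size factors, no filter, the replicate number as a block, fits of the 2 groups compared, leaving out each mouse, leaving out O2 and O5, and limma 3.58.1 on the deposited log2 values.

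The members and lists were chosen with earlier results of these data known. Named members were 11 major chaperones, every member called, the 4 largest rises and falls in Old versus Adult and in PDX versus Old, the member with the highest level per kilobase in each role group, and those that failed the filter. Hspa13, Dnajc14 and Dnajb6 were named after their values were seen. Promoter windows came from RefSeq (GRCm38.p6). No protein sequence was used. The gavage lasted 9 weeks per the treatment labels.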

Additional observations from a re-analysis of the deposited data

Results flagged for a closer look

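In 84 groups of 5 mice (28 named members in 3 groups), the highest or lowest mouse was checked for standing far from the other 4, by its gap to the nearest mouse as a share of the group's range. Chance would flag about 1 in 20 groups of independent, normally distributed values, and 6 of the 84 were flagged. That rate does not carry over to this list, because some members were named for large changes and the same mice recur in every gene. Hspa4 was 174 CPM in O5, where the other Old mice had 137 to 144 CPM. Dnajb5 was 16.2 CPM in O5 against 7.88 to 9.00 CPM. Dnajb13 was 5.5 CPM in O2 against 0.18 to 1.21 CPM. Hspb2 was 1.01 CPM in P3, where the other PDX mice had 0.355 to 0.464 CPM. Dnajc19 was 13.3 CPM in P4, above 12.1 to 12.4 CPM in the other PDX mice. Hspd1 was 266 CPM in A2, above 231 to 239 CPM in the other Adult mice. Leaving out O5 lowered the Old versus Adult log2 fold change of Dnajb5 to 0.44, still called.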

How the results depend on the processing

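The medians over the members kept within -0.02 to 0.04 in Old versus Adult, -0.03 to 0.02 in PDX versus Adult and -0.02 to 0.03 in PDX versus Old under every setting run. The counts of calls depended more on the setting, and the share of all genes called moved with them. In Old versus Adult it was 6.78% as reported, 8.84% with DESeq2, 3.81% with limma, 2.26% without a filter and 1.5% with the replicate block. It was 0.698% with 2 groups, 13.2% without O5, 7.12% without O2 and O5, and 0.97% to 1.51% without an Adult mouse. The shares with DESeq2 and without a filter were taken over the 29465 genes with any count. That base is wider than the 15808 of the main fit, so these shares are not comparable with the others. For Old versus Adult the members called higher (3) became 6 with DESeq2, 1 without a filter or with limma, and 0 with the replicate block or with only the 2 groups, and 0 to 5 leaving out 1 mouse (0 without A1, A2, A3 or A5, 1 without A4, 5 without O5), while those called lower (0) ran from 0 to 1 (Dnajb4 without O4). The partner genes called higher (1) became 2 with DESeq2 and 0 without a filter, with the block, with 2 groups or with limma, and 0 to 2 leaving out 1 mouse (0 without O1 or any Adult mouse, 2 without O3 or O5). Those called lower (2) became 5 with DESeq2, 1 with limma and 0 without a filter, with the block, with 2 groups or without O2 and O5, and 0 to 4 leaving out 1 mouse (0 without O2 or any Adult mouse, 1 without O1, 4 without O5). For PDX versus Adult the members called higher (0) became 3 with DESeq2 and 7 with 2 groups, and those called lower (0) became 1 and 4, and 0 to 1 leaving out 1 mouse (Dnajb4 without P5). Partner genes called higher (0) became 5 with 2 groups, and those called lower (1) became 4 with DESeq2, 7 with 2 groups and 0 with the block, and 0 to 1 leaving out 1 mouse (1 without P5 only). No count changed for PDX versus Old.

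Most fold changes that changed sign were small, with Hspa1a and Dnajb13 as exceptions. In Old versus Adult, Hspa1a was -0.94 without O2 and O5, Hspb1 was -0.00 without a filter and -0.03 with the replicate block or limma, Hspd1 was 0.00 with 2 groups and 0.22 without O2 and O5, and Hsph1 was 0.00 with RLE factors, 0.02 with 2 groups and 0.24 without O2 and O5. In PDX versus Old, without O2 and O5, Dnajb13 was 0.07, Hspe1 -0.11, Hsph1 -0.17 and Hsp90ab1 -0.02. There Hsp90ab1 was -0.00 with RLE factors and -0.01 with 2 groups, Hsp90aa1 was 0.00 without a filter and 0.01 with the block, and Hspd1 was 0.02 with the block and 0.05 with limma. Leaving out 1 mouse, the Old versus Adult ranges were -0.47 to 0.81 (Hspa1a), -0.01 to 0.16 (Hspa8), -0.30 to 0.02 (Hspa9), -0.13 to 0.13 (Hspb1), -0.13 to 0.16 (Hspd1), -0.04 to 0.32 (Hspe1) and -0.15 to 0.26 (Hsph1). The PDX versus Old ranges were -0.24 to 0.05 (Dnajb1), -1.75 to 0.34 (Dnajb13), -0.08 to 0.06 (Hsp90aa1), -0.03 to 0.05 (Hsp90ab1), -0.19 to 0.11 (Hspd1), -0.04 to 0.31 (Hspe1) and -0.20 to 0.20 (Hsph1), and the PDX versus Adult ranges -0.08 to 0.01 (Hspd1) and -0.11 to 0.24 (Hsph1).

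Whether equal replicate numbers mark mice handled together was not settled. Same-numbered mice had mean correlations of -0.168 in Old versus Adult, 0.031 in PDX versus Adult and 0.092 in PDX versus Old. Other pairs had 0.0435, -0.0078 and -0.0225 in the same order. In that order, 0, 2 and 2 of 5 mice correlated best with their own number. Depth limits the members under 1 CPM (Hspa1a, Hspb2, Hspb7 and Dnajb13), which rest on few counts in some mice.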

Other observations

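Genes whose log2 level closely followed that of Dnajc12 over the 15 mice, of 15808 tested, were looked up after its values were seen. The measure was Pearson's r, given as a description over mice of 3 groups that share age, treatment and depth differences. Among the nearest were Yipf5 (r = 0.963), Serpina10 (r = 0.955) and Stx18 (r = 0.947), and over the 10 Old and PDX mice alone r was 0.96, 0.951 and 0.952. Serpina10, a secreted inhibitor of clotting proteases, was at 167 to 204 CPM in Adult, at 479 and 488 CPM in O1 and O4, at 199 to 222 CPM in the other Old mice, and at 279.6 to 528 CPM in PDX mice. The extracellular matrix genes Sulf2 and Postn ran the other way (r = -0.928 and -0.921), Sulf2 with 7.47 and 8.43 CPM in O1 and O4 and 20.5 to 33.9 CPM in Adult mice.

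The ratio of Hspd1 to Hspe1 in CPM, also looked up after the values were seen, was 4.54 to 4.94 in Adult, 3.59 to 5.08 in Old and 3.41 to 4.0 in PDX mice. All PDX mice thus lay below all Adult mice. Such a separation was common in this comparison, where the levels of 19.9% of all genes did not overlap. The share for ratios of other gene pairs was not computed.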
